A study of Mus musculus with 6 samples.

Results

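The liver response to FGF19 was described by setting the 2 arrays of mice given FGF19 against the 2 arrays of mice given vehicle, which are 4 of the 6 arrays of the series. The arrays of each group were found by their titles. Of the 22690 probe sets on the array, the 20380 that the platform annotation pairs with exactly 1 gene were used, and they covered 12393 genes, of which 9685 had a mean signal above the filter on low values. All mice were wild-type C57Bl/6 males kept without food for the 6 h of the treatment, and neither age, dose nor the composition of the vehicle is given in the sources used here. The vehicle group received vehicle alone, the FGF19 group recombinant FGF19 and the FGF15 group, used below for comparison and in the estimate of the spread, purified FGF15, each by 1 injection into the jugular vein. RNA of frozen whole liver, biotin-labelled, was hybridised to the Affymetrix Mouse Genome 430A 2.0 array. Nothing in the labels states that each array stands for its own animal. The p-values therefore describe the variation from array to array, part or all of which may be technical.

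FGF19 is a human hormone of the small intestine, released when the ileum takes up bile acids, and FGF15 is its mouse orthologue. In the hepatocyte it binds the receptor FGFR4 together with the co-receptor β-Klotho, which starts signalling through ERK and lowers transcription of Cyp7a1, so that less bile acid is made from cholesterol. In fasted rodents the hormone is also known to act on glucose, glycogen and protein metabolism without insulin.

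Before the results, replicate 1 of FGF19 has to be set apart. Its 3 control probe sets for 18S ribosomal RNA had a mean signal of 29.3, against 9.99 to 12.6 on the other 5 arrays. Its ratio of 3′ to 5′ signal was 1.63 for actin (1.30 to 1.39 elsewhere), 3.38 for pyruvate carboxylase (2.27 to 2.73) and 0.820 for GAPDH (0.720 to 0.774), so it was the highest of the 6 arrays on each of these measures. For the transferrin receptor its ratio was 3.71, within the range of the others (2.33 to 4.25). Its brightest signals were compressed. The highest signal was 10610 (12450 to 14540 elsewhere), and 3 genes exceeded 10000 (12 to 23 elsewhere). Among the 117 genes with a mean signal of 5000 or more, replicate 1 lay a median of 0.23 log2 below replicate 2, while the vehicle arrays differed there by 0.00. In the ranges of lower signal the medians between the FGF19 arrays lay between -0.02 and 0.04. Log2 values of the FGF19 arrays correlated across probe sets, which are not independent replicates, at r = 0.992 (0.989 for vehicle).

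**Figure D1:**
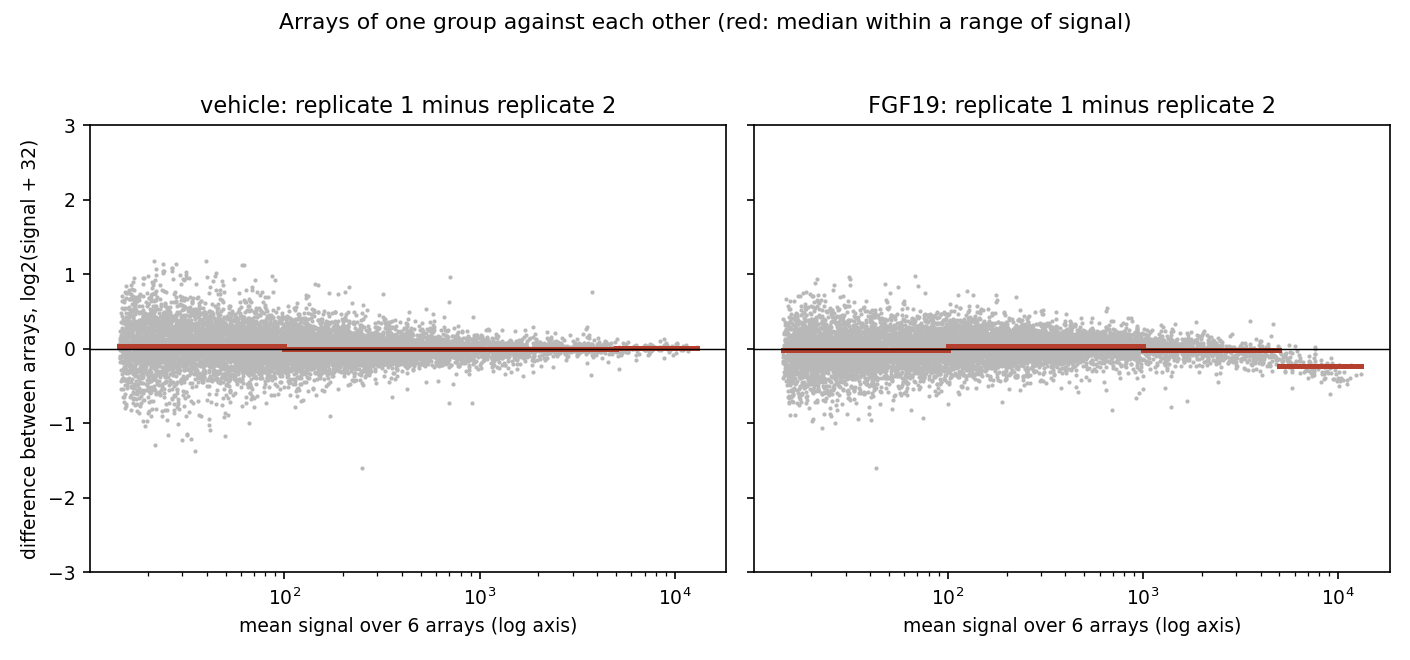
Difference in log2(signal + 32) between replicate 1 and replicate 2 of vehicle (left) and of FGF19 (right) for each gene tested (grey points), against its mean signal over 6 arrays on a log axis. The red lines are medians within ranges of signal: for FGF19 the last one, for 117 genes with a mean signal of at least 5000, lies at -0.23, and the other ranges lie near 0.

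Between FGF19 and vehicle 609 genes were higher (6.29%) and 704 lower (7.27%) at an adjusted p under 0.05, the threshold for every call below. Counts over the lists below are to be read against these shares. List members given as measured are those that passed the filter on low values. They make up 789 of the 839 list entries with a probe set of 1 gene, so dim members are left out. All differences are in log2(signal + 32), a scale that understates the change of dim genes. Each ± value is a standard error from limma (n = 2 arrays a group). In all 1313 called genes both FGF19 arrays lay on one side of both vehicle arrays, and in 1184 of them (90.2%) the FGF19 arrays lay within 0.25 log2 of each other. The call itself selects for groups that lie apart and arrays that agree, so neither count is separate support for the calls. The same holds where the groups of a called gene are said below to lie apart. Most changes were small: 55 genes were higher and 46 lower by 2-fold or more, and 4 each way by 4-fold or more. The median difference over all tested genes was -0.07, and centring each array on its median moved it to 0.07 and the calls to 1218 higher and 330 lower, so that 78.7% of the calls were higher in place of 46.4%. Quantile normalization gave 655 higher and 591 lower calls, and cyclic loess 654 and 621. The balance of higher and lower calls therefore depends on the scaling, most of all on centring. Centring adds the same amount to every difference, so list counts after it are not a separate check. In genes with a mean signal under 100 the FGF19 arrays lay a median of -0.16 and -0.13 from the vehicle mean. From 100 to 1000 the medians were 0.00 and -0.03. Small differences are read relative to the median of all tested genes. Without FGF19 replicate 1 there were 366 higher and 402 lower genes, and 723 of the 1313 calls were kept, while without FGF19 replicate 2 there were 429 and 473, with 771 kept. Without vehicle replicate 1 the counts were 316 and 283, and without vehicle replicate 2 they were 325 and 329. Among the 117 brightest genes 3 were higher and 26 lower, which became 5 and 15 without FGF19 replicate 1 and 1 and 78 without replicate 2.

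**Figure D2:**
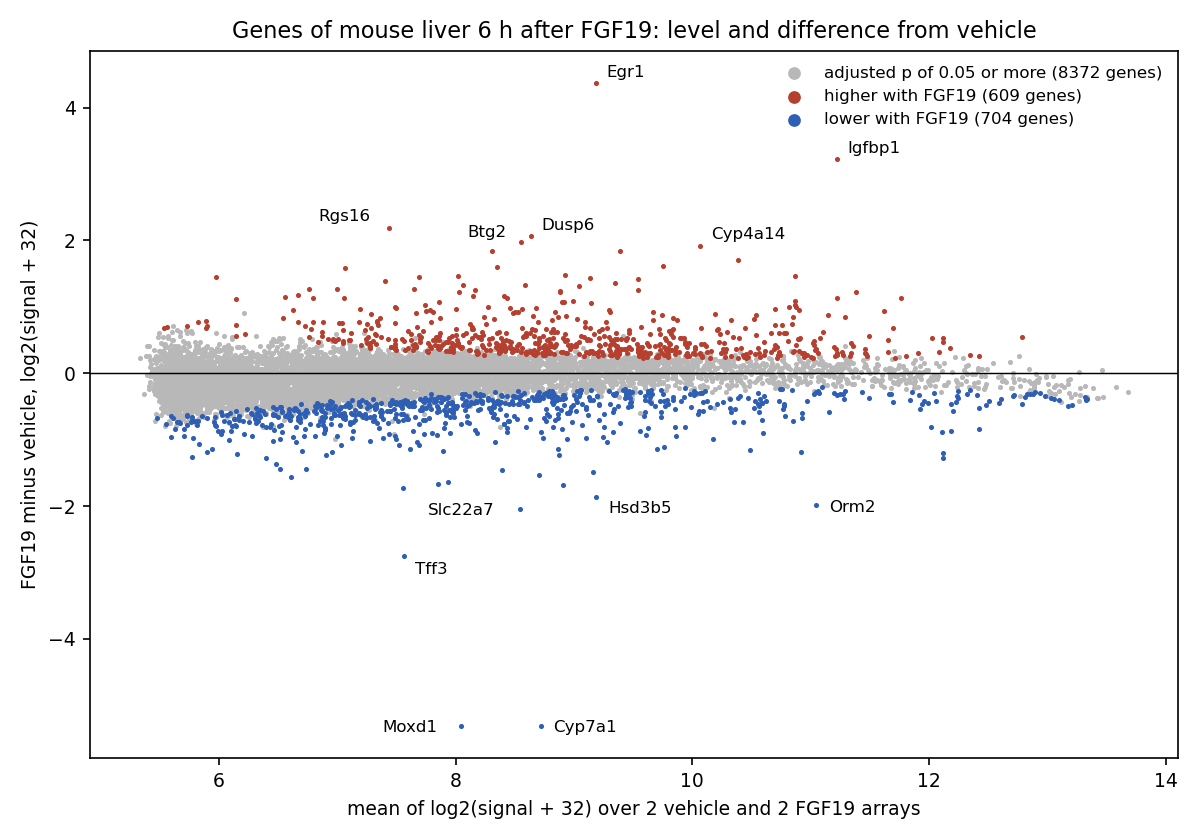
Difference between FGF19 and vehicle for 9685 genes, in log2(signal + 32), against the mean of the same measure over the 2 vehicle and 2 FGF19 arrays. Red points are the 609 genes called higher and blue points the 704 called lower; Egr1 and Igfbp1 stand highest and Cyp7a1 and Moxd1 lowest, both at -5.31.

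Cyp7a1, which sets the rate of bile acid synthesis, fell more than any other tested gene together with Moxd1. The vehicle arrays read 2677 and 2572 and the FGF19 arrays 38.2 and 32.1, a difference of -5.31 ± 0.09 (adjusted p = 5.54e-10). The FGF19 signals were thus 0.0134 of the vehicle signals, and near the level at which the offset of 32 governs the log2 value. Cyp8b1, the sterol 12α-hydroxylase that sets the share of cholic acid, had 1171 and 1317 with vehicle and 618 and 506 with FGF19 (-1.11 ± 0.10, adjusted p = 5.49e-05). Cyp7b1, of the alternative pathway of synthesis, went from 6623 and 6839 to 2832 and 2960.0 (-1.21 ± 0.06). Cyp2c70, which makes muricholic acids in mice, went from 6196 and 6270.0 to 3309 and 3503 (-0.87 ± 0.06). In each of these genes the groups lay apart by far more than the arrays within them. Of the 19 measured genes of bile acid synthesis 0 were higher and 5 lower, with a median of -0.18, and 6 were lower without FGF19 replicate 1 and 9 without FGF19 replicate 2. When arrays were centred 2 were higher and 4 lower (median -0.03). The fifth was Hsd3b7 at -0.27 ± 0.06, a call that was lost when arrays were centred (-0.13, adjusted p = 0.309) and without vehicle replicate 1 (-0.24, adjusted p = 0.161) or vehicle replicate 2 (-0.30, adjusted p = 0.0782).

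Among the nuclear receptors that govern this pathway, Nr0b2 (SHP), a repressor of Cyp7a1, rose and Nr1h4 (FXR), the bile acid receptor, fell. Nr0b2 had 120.3 and 116 with vehicle and 284 and 263 with FGF19 (1.03 ± 0.09, adjusted p = 5.8e-05). Nr1h4 had 992 and 979.7 with vehicle and 564 and 490.5 with FGF19 (-0.87 ± 0.08, adjusted p = 6.15e-05). Nr5a2 (LRH-1), a partner in Cyp7a1 activation, had a difference of -0.29 ± 0.11 (adjusted p = 0.098) and was named after its value was seen. The receptor Fgfr4 went from 134 and 121 to 92.2 and 77.2 (-0.45 ± 0.12, adjusted p = 0.0389), and the co-receptor Klb from 186 and 197 to 146 and 119.9 (-0.45 ± 0.11, adjusted p = 0.0275). Both calls are fragile. Fgfr4 had an adjusted p of 0.0701 without FGF19 replicate 1, 0.2 without replicate 2, 0.198 without vehicle replicate 1 and 0.0885 without the other vehicle array. Klb had 0.168 without FGF19 replicate 2, 0.0949 without vehicle replicate 1 and 0.13 without the other vehicle array, and its other probe set lay at 0.20. Of the 17 measured receptors and regulators 2 were higher and 5 lower (median -0.16), and centring left 3 higher and 2 lower.

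Of the 14 measured transporters of bile acids and sterols 4 were higher and 3 lower, with a median of -0.05 that became 0.10 when arrays were centred. Slc22a7, an organic anion transporter of the hepatocyte's blood side, fell from 726 and 723 to 156 and 147 (-2.04 ± 0.08, adjusted p = 2.28e-07). Abcc3, which exports bile acid conjugates and glucuronides to the blood, rose from 644 and 658 to 1208 and 1172 (0.84 ± 0.06, adjusted p = 2.19e-05). Abca1, the exporter of cholesterol to apolipoprotein A-I, rose from 2719 and 2618 to 3705 and 3889 (0.50 ± 0.07). With FGF15 Abca1 stood at 0.01, and the difference between the hormones passed the test (0.49, adjusted p = 0.00217). Abcc3 stood at 0.79 with FGF15. Without FGF19 replicate 1 the list had 2 higher and 3 lower genes, and without vehicle replicate 2 it had 2 of each.

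**Figure D3:**
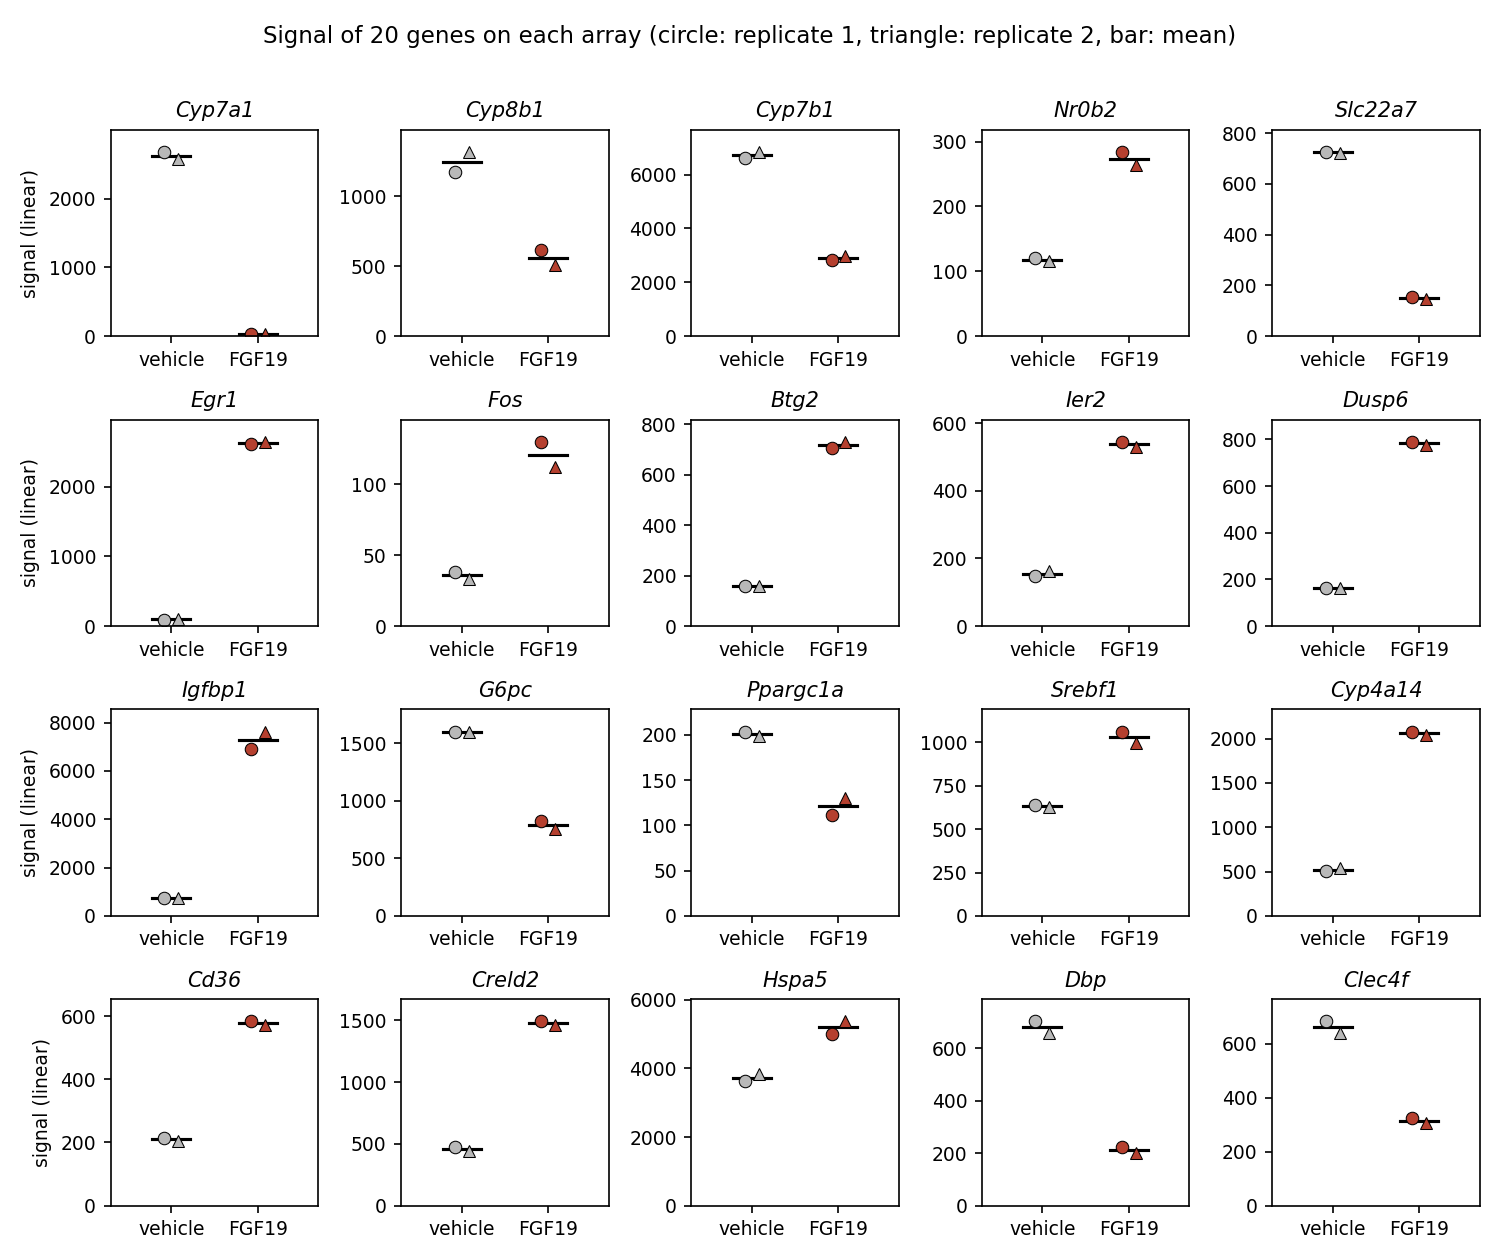
Deposited signal (linear, axes from 0) of 20 genes on each vehicle array (grey) and FGF19 array (red), with replicate 1 as a circle, replicate 2 as a triangle and the group mean as a bar. In every panel the 2 arrays of a group lie close together and apart from the other group, as in Cyp7a1 (2677 and 2572 against 38.2 and 32.1) and Igfbp1 (740.1 and 753 against 6925 and 7630.0).

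Immediate early genes are the first to be transcribed after growth factor signalling. Egr1, a zinc finger factor induced through ERK, rose more than any other gene, from 85.1 and 108 with vehicle to 2607 and 2642 with FGF19 (4.37 ± 0.09, adjusted p = 2.26e-09). Btg2, an antiproliferative gene, had 157 and 158 with vehicle and 704 and 730.3 with FGF19 (1.98 ± 0.08). Ier2 had 149 and 162 with vehicle and 546 and 530.3 with FGF19 (1.61 ± 0.09). None of these groups overlapped. Fos, a subunit of AP-1, stayed dim, with 38.4 and 33.3 against 130.2 and 112 (1.17 ± 0.15). Junb, another subunit of AP-1, rose by 0.92 ± 0.10. Maff, a small bZIP protein, rose from signals of 6.58 and 5.66, far under the offset, to 59.3 and 86.3 (1.45 ± 0.23). The mRNA-destabilising proteins Zfp36 and Zfp36l1 rose by 0.80 ± 0.06 and 0.81 ± 0.06. Of the 25 measured genes 9 rose and 0 fell, with a median of 0.28, and 8 rose without either FGF19 array. The list's other classical members did not pass: Jun stood at 0.19 ± 0.12 (adjusted p = 0.344) and Myc at 0.12 ± 0.15 (adjusted p = 0.656), both named after their values were seen.

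Dusp6, the phosphatase that ERK signalling induces to restrain itself, rose from 163 and 162 to 789.7 and 775 (2.07 ± 0.08, adjusted p = 1.86e-07). Dusp1, which acts on p38 and JNK as well, had 249 and 222 with vehicle and 382 and 373 with FGF19 (0.62 ± 0.09, adjusted p = 0.00153). Of the 11 measured ERK and FGF targets 4 rose and 0 fell (median 0.08), the other 2 being the Ras-ERK inhibitors Spred1 and Spred2. Those 2 calls rest on all arrays: Spred1 had adjusted p-values between 0.0613 and 0.107 with any vehicle or FGF19 array left out, and Spred2 had 0.0959 without FGF19 replicate 1 and 0.0694 without vehicle replicate 2. Rgs16, which ends signalling of G proteins, rose from 41.4 and 58 to 344 and 335 (2.19 ± 0.11), the third largest increase. Id1, an inhibitor of helix-loop-helix factors, rose from 89.0 and 58.7 to 249.5 and 236 (1.39 ± 0.16). The cell cycle inhibitor Cdkn1a rose from 202 and 217 to 383 and 404 (0.82 ± 0.09).

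Igfbp1, a secreted binding protein of insulin-like growth factors that the fasted liver makes and insulin represses, had the second largest increase. Its signal was 740.1 and 753 with vehicle and 6925 and 7630.0 with FGF19 (3.23 ± 0.07, adjusted p = 2.26e-09), 9.75 times the vehicle signal. With FGF15 it was 709 and 742, within the range of the vehicle arrays or just below it. G6pc, the glucose-6-phosphatase that releases glucose, had 1602 and 1604 with vehicle and 827 and 753 with FGF19 (-0.99 ± 0.08, adjusted p = 2.55e-05). Pck1, which makes phosphoenolpyruvate, was lower by less, with 7246 and 7714 against 5588 and 6256 (-0.34 ± 0.08, adjusted p = 0.0162). That call was lost when arrays were centred (-0.19, adjusted p = 0.19) and without vehicle replicate 1 (-0.38, adjusted p = 0.0778) or vehicle replicate 2 (-0.29, adjusted p = 0.144). Of 14 measured gluconeogenic enzymes 1 was higher, 3 lower and 10 not called, with a median of -0.05. When arrays were centred 4 were higher and 1 lower (median 0.10), and 1 was lower without either vehicle array.

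The coactivators of fasting metabolism were lower. Ppargc1b had 166 and 145 with vehicle and 58.5 and 42.3 with FGF19 (-1.19 ± 0.16, adjusted p = 0.000991). Ppargc1a (PGC-1α), which drives gluconeogenic transcription, had 204 and 198 with vehicle and 111 and 130.5 with FGF19 (-0.61 ± 0.12, adjusted p = 0.00863). All 5 probe sets of Ppargc1a lay below 0, from -0.82 to -0.45. Its call was lost without FGF19 replicate 1 (-0.52, adjusted p = 0.079), without vehicle replicate 1 (-0.59, adjusted p = 0.0679) and without vehicle replicate 2 (-0.63, adjusted p = 0.0529). With FGF15 its signals were 31.0 and 29.7, and the difference between the hormones was 1.29 ± 0.12 (adjusted p = 0.00022). Of 21 measured cAMP and fasting regulators 4 rose, among them Crem (0.61 ± 0.08) and the phosphodiesterase Pde4b (0.89 ± 0.15), and 3 fell, with a median of 0.02. Foxo1, the factor that insulin excludes from the nucleus, stood at -0.25 ± 0.14 (adjusted p = 0.27), and Fgf21, a fasting hormone of the liver, was dim and stood at -0.04 ± 0.20 (adjusted p = 0.92).

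Gys2, the liver glycogen synthase, rose from 725 on both vehicle arrays to 1177 and 988 (0.55 ± 0.08, adjusted p = 0.00199). Of 14 measured glycogen genes 2 rose and 0 fell (median 0.01), or 5 and 0 when arrays were centred, and Gys2 was the 1 that kept its call without either FGF19 array. Of 18 measured genes of insulin signalling 1 rose, the pseudokinase Trib1 (1.33 ± 0.12), and 2 fell, of which Grb10, an adaptor that restrains the insulin receptor, stood at -1.24 ± 0.16. The 3 probe sets of Grb10 ranged from -1.24 to -0.04. The shares of the list were 5.56% higher and 11.1% lower, near the 6.29% and 7.27% of all genes. When arrays were centred 4 were higher and 1 lower. Of 22 measured genes known to respond to glucocorticoids 9 rose and 2 fell, with a median of 0.16, and without FGF19 replicate 1 the counts were 8 and 1. Centred, 12 were higher and 0 lower. They included Gadd45a (1.27 ± 0.13), the transcription factor Cebpd (0.93 ± 0.08), the kinase Sgk1 (0.86 ± 0.10, named after its value was seen) and the lactate transporter Slc16a1 (0.66 ± 0.07). Igfbp1, Cdkn1a and Dusp1 stand in this list too. Cebpd had a second probe set at -0.02. The 2 lower members were Nr3c1, the glucocorticoid receptor itself, and Pck1. Fkbp5, Tsc22d3 and Per1, which are in the list too, were not among the called genes.

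Fatty acid oxidation was one of the lists with most higher genes. Of 31 measured members 19 rose and 0 fell, with a median of 0.39 against -0.07 for all genes, and 16 rose without either FGF19 array. Without vehicle replicate 1 the count was 11. Cyp4a14, a fatty acid ω-hydroxylase and classical target of PPARα, rose from 504 and 534 to 2079 and 2036 (1.92 ± 0.06, adjusted p = 8.35e-08). Cd36, the fatty acid translocase, rose from 215 and 204 to 583 and 572 (1.33 ± 0.08). Vnn1, a pantetheinase, had 316 and 291 with vehicle and 842 and 753 with FGF19 (1.31 ± 0.08). Plin2, which coats lipid droplets, had 2359 and 2264 with vehicle and 4841 and 5372 with FGF19 (1.13 ± 0.07). In all 4 the groups lay well apart. Not every Cyp4a gene rose. Cyp4a31, which is not in this list, had 130.5 and 142.4 with vehicle and 22.01 and 27.94 with FGF19 (-1.565 ± 0.14, adjusted p = 8.68e-05). Its FGF19 signals lie under the offset of 32. Ehhadh, an enzyme of oxidation in the peroxisome, rose by less than Cyp4a14, Cd36, Vnn1 and Plin2 (0.60 ± 0.06). So did Aldh3a2 (0.87 ± 0.07), and both were named after their values were seen. Cpt1a and Ppara, which control the pathway, did not pass. Cpt1a, which admits fatty acids to the mitochondrion, had 2739 and 2700.0 with vehicle and 2512 and 2712 with FGF19 (-0.06 ± 0.07, adjusted p = 0.603), and Ppara stood at -0.23 ± 0.09 (adjusted p = 0.15).

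Lipogenic genes also included more higher than lower members, 10 and 2 of 24, with a median of 0.19. The 2 lower members were Thrsp and Elovl1. Srebf1, the factor that drives fatty acid synthesis, rose from 641 and 629 to 1063 and 996 (0.67 ± 0.07, adjusted p = 0.000242). Fasn, the fatty acid synthase, had 1773 and 1889 with vehicle and 3448 and 3203 with FGF19 (0.85 ± 0.07, adjusted p = 3.76e-05). Me1, malic enzyme, which supplies NADPH, had 1283 and 1212 with vehicle and 2538 and 2861 with FGF19 (1.09 ± 0.07). Insig2, which holds SREBP precursors in the endoplasmic reticulum, rose by 0.88 ± 0.07. Without FGF19 replicate 1 the list had 9 higher and 0 lower genes, without vehicle replicate 1 6 and 0, and without vehicle replicate 2 5 and 1.

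Of 19 measured genes of cholesterol synthesis 0 were higher and 8 lower, with a median of -0.19. Sqle, squalene epoxidase, fell from 568 and 518 to 289 and 269 (-0.89 ± 0.09). Hmgcs1, which makes HMG-CoA, had 2486 and 2352 with vehicle and 1537 and 1483 with FGF19 (-0.67 ± 0.06). Dhcr7, the last enzyme of the pathway, fell by 0.51 on the log2 scale. When arrays were centred the median was -0.04 and 3 were lower. Without FGF19 replicate 1 the count of lower genes was 5, without replicate 2 it was 6, and without either vehicle array it was 4.

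**Figure D4:**
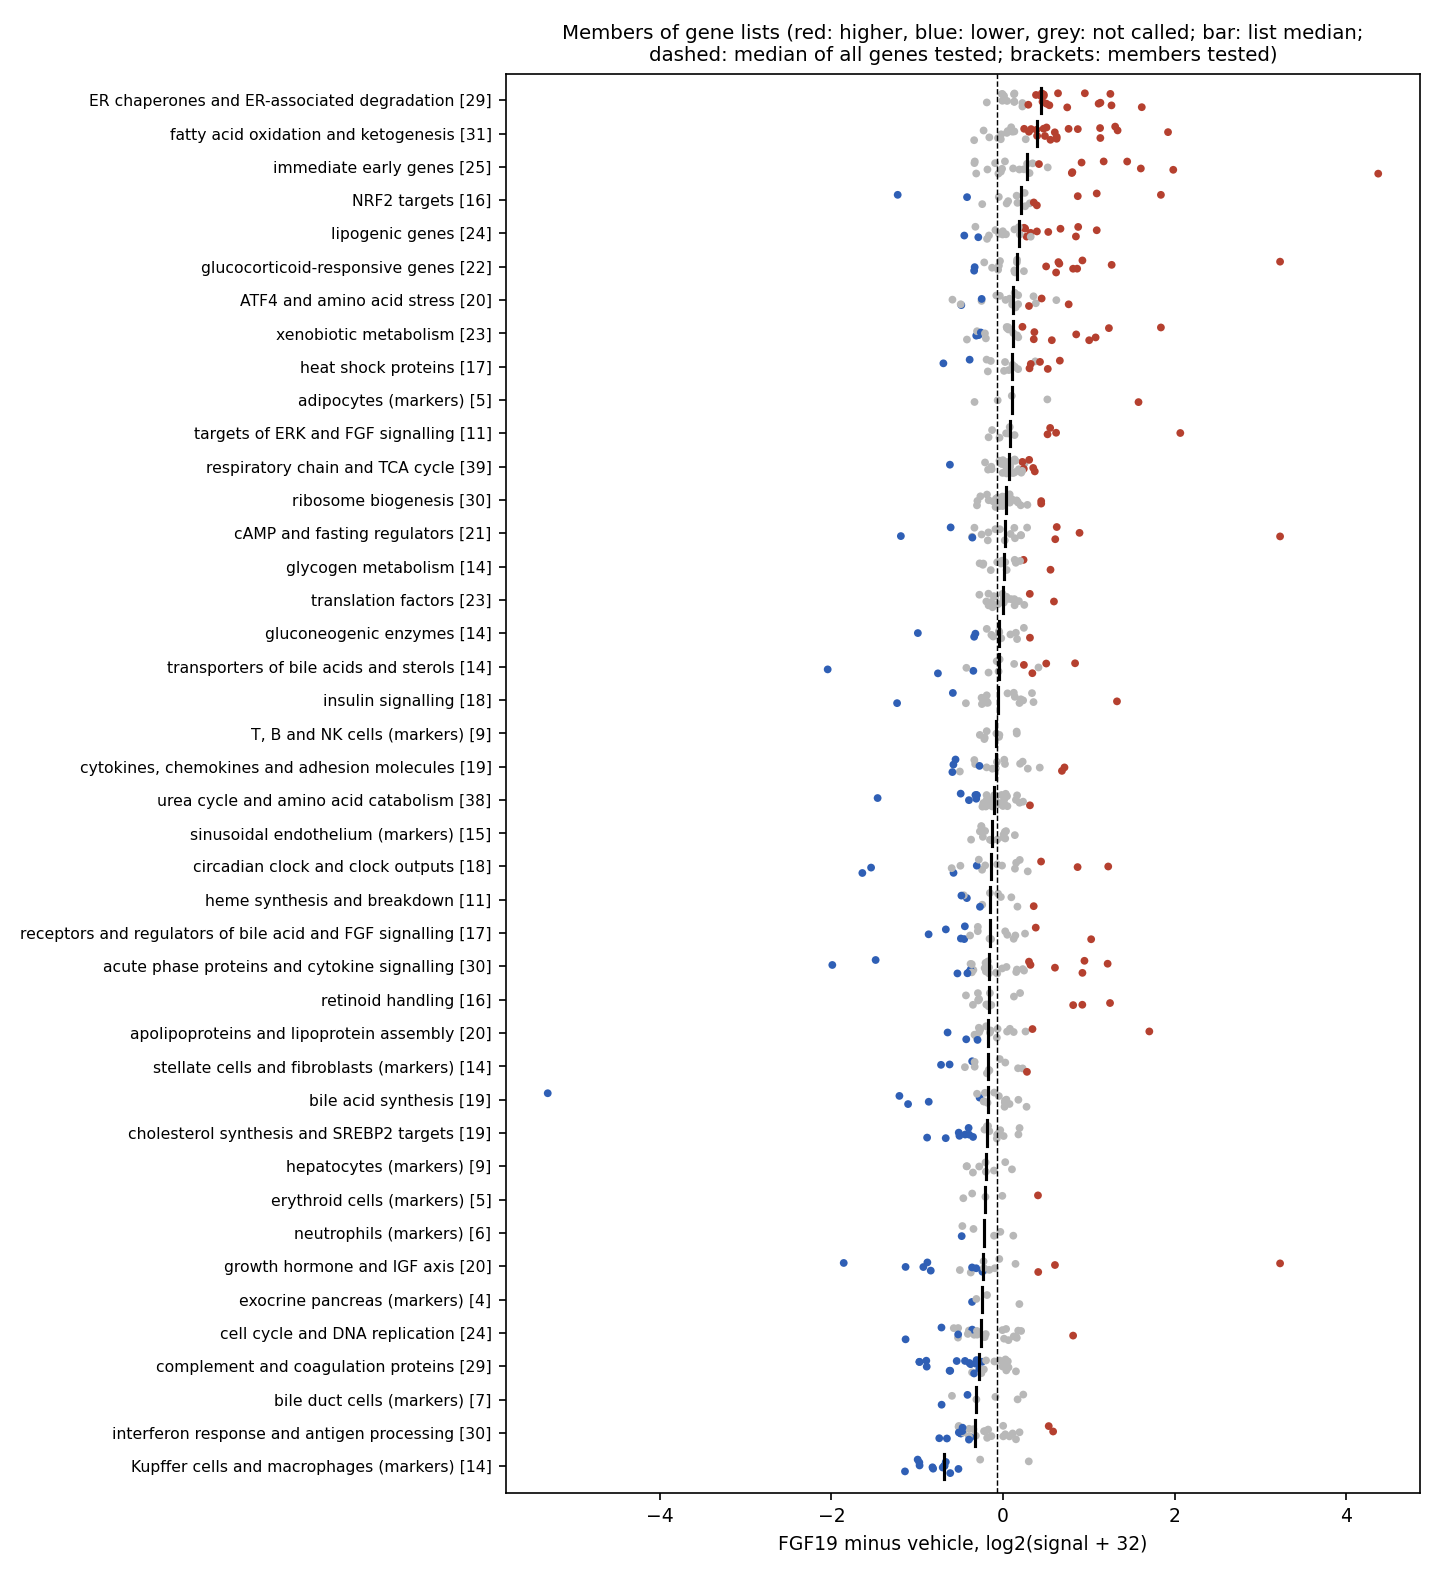
Difference between FGF19 and vehicle, in log2(signal + 32), for every tested member of 32 lists of pathway genes and 10 lists of cell type markers, with the number tested in brackets. Red points are called higher, blue called lower and grey not called; black bars are list medians, from 0.44 for chaperones of the endoplasmic reticulum to -0.69 for Kupffer cell markers, and the dashed line is the median of all genes at -0.07.

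Chaperones of the endoplasmic reticulum (ER) and genes of ER-associated degradation had the highest median of the lists, 0.44. Of 29 measured members 17 rose and 0 fell, with 15 higher without either FGF19 array, 13 without the first vehicle array and 14 without the second. Creld2, which is secreted under ER stress, rose from 475 and 447 to 1493 and 1464 (1.62 ± 0.08, adjusted p = 9.78e-07). Sdf2l1, a partner of the chaperone BiP, had 97.2 and 97.3 with vehicle and 304 and 255 with FGF19 (1.26 ± 0.10). Syvn1, the ubiquitin ligase of ER-associated degradation, had 526 and 385 with vehicle and 971 and 1283 with FGF19 (1.25 ± 0.14). Herpud1, of the same machinery, had 1554 and 1600.0 with vehicle and 3495 and 3510.0 with FGF19 (1.14 ± 0.06). Hspa5 (BiP itself) rose by less, from 3625 and 3826 to 5013 and 5372 (0.48 ± 0.07, adjusted p = 0.00145). The groups were apart in each of them. Xbp1, the transcription factor of this programme, stood at 0.38 ± 0.07, but its probe sets ranged from -0.44 to 0.70, and its call was lost without vehicle replicate 2 (0.37, adjusted p = 0.0571). Hsp90b1 did not pass (0.13 ± 0.07, adjusted p = 0.25). Ddit3 (CHOP) rose from 61.0 and 46.2 to 118 and 108 (0.77 ± 0.13), but the 20 measured genes of ATF4 and amino acid stress had 3 higher and 2 lower members, or 5 and 0 when arrays were centred. Asns, asparagine synthetase and a standard ATF4 target, was lower (-0.49 ± 0.11), with adjusted p-values between 0.0615 and 0.124 when any vehicle or FGF19 array was left out.

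Because these genes moved together, the sequence before their start sites is shown. In the RefSeq table of promoters (GRCm38.p6) 16 of the 17 higher genes had an entry, and 250 bases before each start were searched on both strands for the ER stress element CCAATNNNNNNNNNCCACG, whose boxes CCAAT and CCACG stand 9 bases apart. The full element was found in 7 of the 16, in 3 of the 8 members with an entry that were not called, and in 37 of all 32851 windows (0.113%). The box CCAAT alone was in 13 of the 16 (33.8% of all windows) and CCACG in 12 of the 16 (28.3%). Among the 8 members that were not called CCAAT was in 7 and CCACG in 7, so neither box sets the genes that rose apart. A gene counted if any of its windows matched, while the shares of all windows are per window. The share with the full element was 43.8% among members that rose and 37.5% among those that did not pass, and a match describes letters, not a bound site. The 150 bases before the start are given for 5 of the genes that rose, with both boxes in capitals. All 5 lie on the + strand, at chr15:88819496-88819645 for Creld2, chr2:34771940-34772089 for Hspa5, chr12:17266439-17266588 for Pdia6, chr19:6046426-6046575 for Syvn1 and chr14:118937782-118937931 for Dnajc3.
Creld2: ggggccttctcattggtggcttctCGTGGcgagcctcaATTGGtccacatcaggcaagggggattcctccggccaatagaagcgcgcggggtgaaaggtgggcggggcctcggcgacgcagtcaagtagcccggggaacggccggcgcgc
Hspa5: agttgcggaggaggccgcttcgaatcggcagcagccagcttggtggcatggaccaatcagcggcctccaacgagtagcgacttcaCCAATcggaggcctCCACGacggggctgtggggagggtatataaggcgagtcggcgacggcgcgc
Pdia6: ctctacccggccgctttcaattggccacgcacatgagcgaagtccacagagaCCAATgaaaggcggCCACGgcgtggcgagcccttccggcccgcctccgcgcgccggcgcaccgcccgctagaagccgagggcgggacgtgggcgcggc
Syvn1: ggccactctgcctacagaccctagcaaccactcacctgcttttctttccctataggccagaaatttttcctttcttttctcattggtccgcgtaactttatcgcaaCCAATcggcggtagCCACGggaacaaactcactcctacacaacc
Dnajc3: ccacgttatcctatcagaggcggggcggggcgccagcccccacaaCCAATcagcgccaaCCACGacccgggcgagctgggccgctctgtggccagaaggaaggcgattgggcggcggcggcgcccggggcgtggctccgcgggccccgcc

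In Creld2 the element reads on the other strand, so its boxes appear as CGTGG and ATTGG. It begins 126 bases before the start in Creld2, 105 in Dnajc3, 98 in Pdia6, 65 in Hspa5 and 44 in Syvn1. The increases of these genes, in the same order, were 1.62, 0.47, 0.64, 0.48 and 1.25, so distance from the start and size of the increase did not run in 1 order.

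Enzymes of xenobiotic metabolism had 9 higher and 3 lower members of 23 measured, with a median of 0.12. The lower count was 6 without FGF19 replicate 2, 2 without FGF19 replicate 1, and 0 without either vehicle array or when arrays were centred. Gsta2, a glutathione transferase, rose from 322 and 321 to 1265 and 1204 (1.84 ± 0.07, adjusted p = 1.39e-07), and Gsta4 by 1.23 ± 0.08. Cyp2b10, a target of the receptor CAR, rose by 1.00 ± 0.07. Among the 16 measured NRF2 targets 5 rose and 2 fell (9 and 2 when centred), in opposite directions within glutathione synthesis and repair. Gclc, the catalytic subunit of glutamate-cysteine ligase, had 1090.0 and 1039 with vehicle and 1799 and 2162 with FGF19 (0.87 ± 0.09), while Gclm, its modifier subunit, fell by 0.42 on the log2 scale. Srxn1, sulfiredoxin, had 698 and 674 with vehicle and 272 and 277 with FGF19 (-1.23 ± 0.07), although 1 of its 4 probe sets lay at 0.11. In retinoid handling 3 of 16 rose and 0 fell: Rdh16 (1.25 ± 0.09), the retinoic acid hydroxylase Cyp26a1 (0.92 ± 0.11) and Retsat (0.82 ± 0.07). The median of this list was -0.17, below the -0.07 of all genes, so the list as a whole did not move up. In heme metabolism 1 of 11 was higher and 3 were lower, including Alas1, the first enzyme of synthesis (-0.42 ± 0.06). Without FGF19 replicate 1 the counts were 0 higher and 1 lower.

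The growth hormone and IGF axis, which controls the sex-biased genes of the male liver, had 3 higher and 8 lower members of 20, with a median of -0.23, the same counts without FGF19 replicate 1, 3 higher and 5 lower when arrays were centred, and 2 and 5 without either vehicle array. Hsd3b5, a steroid dehydrogenase of male liver, had 1062 and 1088 with vehicle and 295 and 254 with FGF19 (-1.86 ± 0.08, adjusted p = 5.62e-07). Socs2, a feedback inhibitor induced by growth hormone through STAT5, fell from 1194 and 1215 to 503 and 559 (-1.14 ± 0.09). Igfals, the acid-labile subunit that carries IGF1 in serum, had 435 and 439 with vehicle and 231 and 215 with FGF19 (-0.88 ± 0.08, named after its value was seen). Serpina12 fell by 0.93 and Nudt7 by 0.84 on the log2 scale. Without either vehicle array 5 were lower.

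Clock outputs were among the largest decreases. Dbp, a PAR bZIP factor whose level follows the clock, had 702 and 657 with vehicle and 224 and 202 with FGF19 (-1.54 ± 0.08, adjusted p = 1.77e-06). Usp2, a rhythmic ubiquitin protease, had 422 and 381 with vehicle and 104 and 110.1 with FGF19 (-1.64 ± 0.09). Nfil3, which binds the same sites as DBP and represses, had 295 and 368 with vehicle and 647 and 611 with FGF19 (0.87 ± 0.10). Rora, an activator of Bmal1, rose from 275 and 278 to 662 and 720.4 (1.23 ± 0.08). Of 18 measured clock genes 3 rose and 4 fell, with a median of -0.14 that became 0.01 when arrays were centred. The labels give 1 duration for all groups but no hour of the day, and whether the groups were killed at the same hour is not given in the sources used here.

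Among proteins that the liver secretes, Orm2, an acute phase glycoprotein, had 4075 and 4292 with vehicle and 1039 and 1019 with FGF19 (-1.99 ± 0.06, adjusted p = 8.1e-08), and Saa3, a serum amyloid A, had 922 and 926 with vehicle and 330.4 and 289.9 with FGF19 (-1.49 ± 0.08). Steap4, a metalloreductase induced by cytokines, rose by 1.22 ± 0.06. The acute phase list as a whole had 6 higher and 6 lower of 30 measured genes (median -0.16), 6 and 5 without FGF19 replicate 1, and 6 and 15 without replicate 2. When arrays were centred it had 10 higher and 3 lower (median -0.02). Without vehicle replicate 1 it had 4 and 3, and without the other vehicle array 5 and 3. Amino acid catabolism had 1 higher and 7 lower of 38, 1 and 4 without replicate 1, and 2 and 14 without replicate 2. Centred, it had 4 higher and 2 lower, and it had 0 and 3 without the first vehicle array and 1 and 2 without the second. Ddc, aromatic amino acid decarboxylase, fell by 1.46 on the log2 scale. Apolipoproteins had 2 higher and 3 lower of 20 (3 and 4 without replicate 1, 2 and 9 without replicate 2). For apolipoproteins the shares were 10% higher and 15% lower, against 6.29% and 7.27% of all genes. Pltp, which moves phospholipids between lipoproteins, rose from 708 and 713 to 2332 and 2448 (1.71 ± 0.07), and Apom, carrier of sphingosine 1-phosphate, fell from 2179 and 2163 to 1384 and 1367 (-0.65 ± 0.06).

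Complement and coagulation proteins had 0 higher and 15 lower of 29 measured, with a median of -0.28, and 12 lower without FGF19 replicate 1. When arrays were centred 1 was higher and 8 lower (median -0.13). The count was 8 without the first vehicle array and 7 without the second. C9, of the membrane attack complex, had 6050.0 and 5877 with vehicle and 3093 and 3318 with FGF19 (-0.89 ± 0.07), and C8b, of the same complex, had 2050.0 and 2101 with vehicle and 1066 and 1138 with FGF19 (-0.89 ± 0.08). C1qa and C1qc, subunits of C1q, fell by 0.97 and 0.98. C1q is made by macrophages, and C1qa, C1qb and C1qc stand in the list of Kupffer cell markers too.

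Markers of Kupffer cells, the resident macrophages of the liver, fell together. Of 14 measured markers 12 were lower and 0 higher, with a median of -0.69, and the count was 12 without either FGF19 array, 12 when arrays were centred and 11 without either vehicle array. Summed over the markers, the signal came to 7311 and 7267 with vehicle and 4043 and 3973 with FGF19. With FGF15 the sums were 4120 and 4194, so the fall was not particular to FGF19. Both hormones are read against the same 2 vehicle arrays. Clec4f, a lectin of Kupffer cells, went from 683 and 639 to 326 and 305 (-0.995 ± 0.08), Vsig4, a complement receptor, from 694 and 632 to 284 and 281 (-1.14 ± 0.09), and Csf1r, the receptor for the growth factor of macrophages, from 1056 and 977 to 571 and 550.2 (-0.82 ± 0.07). These 3 were named after their values were seen. In whole liver, fewer cells of a type and less RNA per cell cannot be told apart. Marco, a scavenger receptor of macrophages, stood at 0.30 ± 0.15 (adjusted p = 0.234) and Cd68 was the other marker that did not pass.

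The interferon response and antigen processing list, much of it expressed in macrophages, had 2 higher and 9 lower of 30 measured genes (median -0.33), 1 and 5 without FGF19 replicate 1, and 2 and 4 when arrays were centred (median -0.19). Without vehicle replicate 1 the counts were 2 and 4, and without the other vehicle array 1 and 5. Irf7 (-0.74 ± 0.09), the immunoproteasome subunit Psmb8 (-0.65 ± 0.09) and Cd74, the invariant chain of MHC class II (-0.47 ± 0.07), fell. The chemokine Cxcl1, in contrast, rose from 2634 and 2522 to 4117 and 4218 (0.69 ± 0.06). Whether the fall of macrophage markers has a part in the lower C1q and antigen processing genes was not tested.

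The liver label was borne out by hepatocyte markers, which were among the brightest on all arrays. Of 9 measured, 0 were called, and their summed signal was 84319 and 83767 with vehicle and 62375 and 78962 with FGF19. Albumin had 10510.0 and 9934 with vehicle, 6159 on FGF19 replicate 1 and 9377 on FGF19 replicate 2 (-0.43 ± 0.15, adjusted p = 0.101). Without FGF19 replicate 2, on replicate 1 alone, 6 of the 9 were lower, and without replicate 1 0 were. Of the markers of other cell types, 0 of 9 for T, B and NK cells and 0 of 15 for sinusoidal endothelium were called, 1 of 6 for neutrophils was lower, and 1 was higher and 3 lower of 14 for stellate cells and fibroblasts. Of 7 bile duct markers 2 were lower, the keratins Krt8 (-0.72 ± 0.07) and Krt18 (-0.41 ± 0.07), which hepatocytes express as well. Erythroid, adipocyte and pancreas markers had 1 called gene each.

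Lists of growth genes differed in how many members changed. Of 24 measured genes of the cell cycle and DNA replication 1 rose, Cdkn1a, and 4 fell, with a median of -0.26. The lower share was 16.7%, against 7.27% of all genes, and when arrays were centred 2 were higher and 2 lower. With any vehicle or FGF19 array left out, 0 or 1 fell. Ccnb2 was lower from dim signals (-1.14 ± 0.20), a call that was lost without vehicle replicate 1 (-1.03, adjusted p = 0.0511). Ccnd1, a cyclin that FGF signalling can induce, stood at -0.40 ± 0.12 (adjusted p = 0.0533). Ribosome biogenesis had 2 higher and 0 lower of 30 (median 0.03), and translation factors 2 higher and 0 lower of 23 (median -0.01, or 0.14 when centred), shares of higher genes near the 6.29% of all genes. Eif1a, a translation initiation factor, rose by 0.59 ± 0.07. The respiratory chain and TCA cycle had 5 higher (12.8%) and 1 lower (2.56%) of 39, and the lower one, Idh3a, stood at -0.62 ± 0.08. With a vehicle or FGF19 array left out 0 to 3 were higher, and when arrays were centred 14 were higher and 1 lower (median 0.22). The list of heat shock proteins had 5 higher (29.4%) and 2 lower (11.8%) of 17, among them Chordc1 (0.52 ± 0.08) and Hspb1 (-0.70 ± 0.11). The higher count was 3 without FGF19 replicate 1 or vehicle replicate 1 and 2 without vehicle replicate 2.

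Several of the largest changes belonged to no list. Moxd1, a copper monooxygenase of unsettled substrate, went from 1685 and 1581 to 14.3 and 6.12 (-5.31 ± 0.15, adjusted p = 2.58e-08), and Tff3, a trefoil peptide of mucosal surfaces, from 470.2 and 449.5 to 39.5 and 43.0 (-2.75 ± 0.19). Both are read from signals close to the offset with FGF19. The glucuronosyltransferase Ugt2b38 fell by 1.67 and the predicted gene Gm6958 by 1.73 on the log2 scale. Erdr1 stood at -1.68 ± 0.07 and was read by 1 probe set of a kind that can bind related transcripts. Among increases, Tiparp, a mono-ADP-ribosyltransferase induced by the aryl hydrocarbon receptor, went from 132 and 138 to 555 and 577 (1.84 ± 0.09), Inmt, an N-methyltransferase of amines, from 1069 and 1111 to 3014 and 3139 (1.47 ± 0.06), the tight junction gene Cldn14 from 116 and 134 to 431 and 373 (1.47 ± 0.11), and the carboxylesterase Ces1e by 1.48 ± 0.08.

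Against FGF15, which was compared with the same vehicle arrays, FGF19 had 233 higher genes (2.41%) and 183 lower (1.89%) in the direct contrast of the hormones. Of the genes called against vehicle, 265 were also called against FGF15. Igfbp1 differed most, at 3.23 ± 0.07 with FGF19 and -0.04 ± 0.07 with FGF15 (difference 3.27, adjusted p = 6.03e-09). Egr1 followed, with signals of 315 and 321 under FGF15 (difference 2.92 ± 0.09, adjusted p = 1.32e-07). The immediate early genes Btg2 (0.08 with FGF15), Ier2 (0.00), Fos (0.00), Junb (0.00) and Zfp36 (-0.08) stood near 0 with FGF15, and each passed the test of the difference. Tiparp and Cldn14 stood at -0.02 and 0.09 with FGF15. Dbp, at -0.10 with FGF15, and Gas1, a growth arrest gene (-1.27 ± 0.17 with FGF19 and -0.13 with FGF15), were lower with FGF19. Cyp7a1 was lower by a further 0.87 with FGF19 (adjusted p = 0.000373), from 91.5 and 89.4 with FGF15, and the difference is read near the offset.

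**Figure D5:**
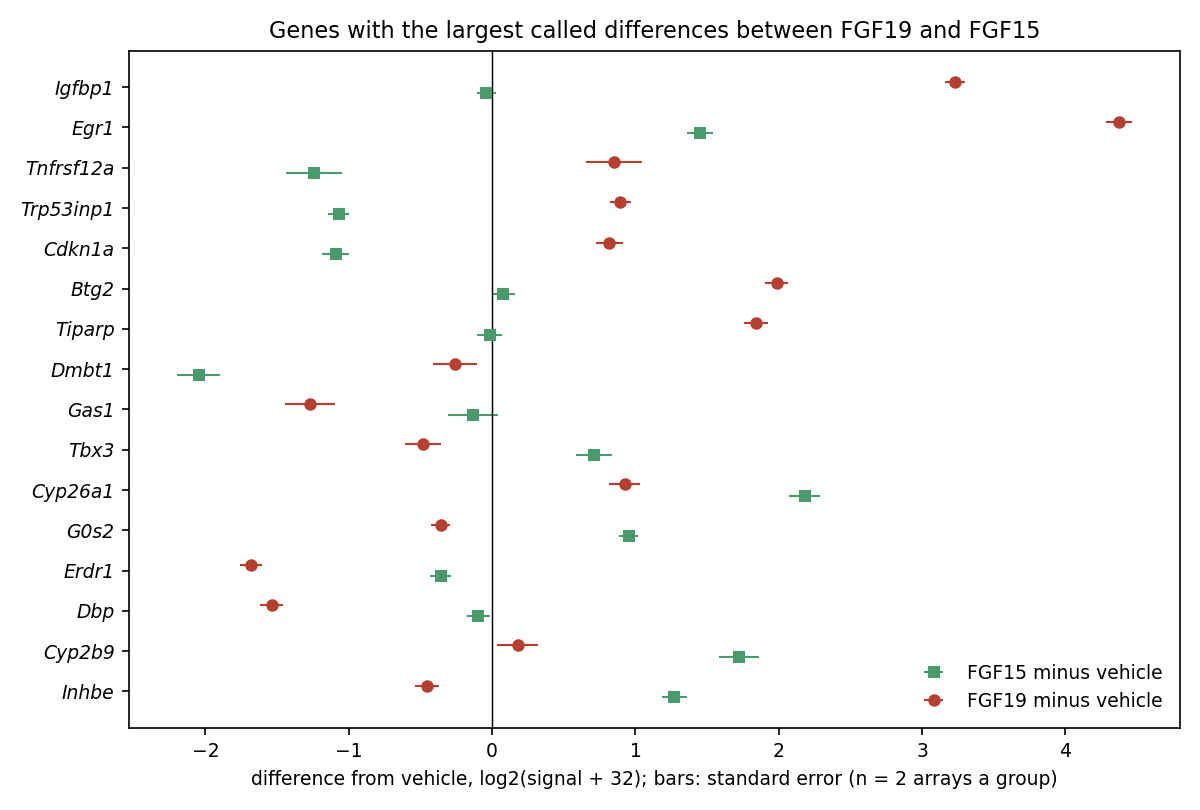
Difference from vehicle in log2(signal + 32) with FGF19 (red circles) and FGF15 (green squares) for the 16 genes with the largest called differences between the hormones, with standard errors as bars (n = 2 arrays a group, the vehicle arrays shared). Igfbp1 lies at 3.23 with FGF19 and -0.04 with FGF15, and opposite signs are seen in Cdkn1a (0.82 and -1.09), Trp53inp1 (0.89 and -1.07) and Inhbe (-0.45 and 1.27).

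In 30 genes the hormones were called in opposite directions against vehicle, 24 higher with FGF19 and lower with FGF15 and 6 the reverse. Srebf1 had 1063 and 996 with FGF19, 641 and 629 with vehicle and 373 and 401 with FGF15, so the 3 groups did not overlap (difference 1.34 ± 0.07, adjusted p = 5.35e-06). Cdkn1a had 84.6 and 77.9 with FGF15, against 383 and 404 with FGF19 (difference 1.91). Trp53inp1, a p53 target of autophagy, had 1617 and 1511 with FGF19, 864 and 789.6 with vehicle and 386 and 367 with FGF15 (difference 1.97). Cebpd, Dusp1, Sgk1 and the estrogen sulfotransferase Sult1e1, the last 2 named after their values were seen, belong to the same 24. In the reverse direction Inhbe, an activin subunit, had 187 and 168 with FGF19, 262 and 247 with vehicle and 638 and 679.7 with FGF15, and G0s2, an inhibitor of adipose triglyceride lipase, stood at -0.36 with FGF19 and 0.95 with FGF15. Their FGF19 calls were lost when arrays were centred (Inhbe -0.31, adjusted p = 0.0531, and G0s2 -0.21, adjusted p = 0.106) and without vehicle replicate 1 (-0.42, adjusted p = 0.062, and -0.33, adjusted p = 0.0666). Dmbt1 and Cyp2b9 moved with FGF15 (-2.05 and 1.72) and stood at -0.26 and 0.18 with FGF19, where neither passed, and both passed the test of the difference.

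The difference between the hormones did not pass in some other genes, although it passed in members of the same lists, among them Cyp2c70 (-0.35, adjusted p = 0.0122), Dnajb9 (-0.44, adjusted p = 0.0024), Vnn1 (-0.41, adjusted p = 0.0174) and Mpeg1 (0.51, adjusted p = 0.003). Cyp8b1 differed by -0.23 (95% interval -0.45 to -0.02, adjusted p = 0.26), Nr0b2 by 0.01 (-0.19 to 0.21, adjusted p = 0.975), Cyp4a14 by -0.05 (-0.19 to 0.10, adjusted p = 0.778), Cd36 by 0.00 (-0.17 to 0.17, adjusted p = 0.99), Creld2 by -0.06 (-0.23 to 0.11, adjusted p = 0.743), Moxd1 by 0.16 (-0.17 to 0.50, adjusted p = 0.649) and Clec4f by -0.21 (-0.38 to -0.04, adjusted p = 0.189). A p that misses the threshold with 2 arrays a group does not show that the hormones act alike.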

How the data were processed

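The values were the deposited signal intensities of the authors, given on a linear scale for each probe set of each array, which per the values had been scaled to a trimmed mean of about 200.1 on every array. Which software summarised the probes, and whether detection was called, is not given in the sources used here. Each gene was represented by its probe set of highest mean over the 6 arrays among those with 1 gene, and 2708 of 12393 genes whose mean log2 value lay below the 25th percentile (a signal of 14.0) were left out. Symbols were updated by Entrez identifier for 20351 probe sets, and for 29 the platform's symbol was kept.

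Log2(signal + 32) was fitted with limma 3.58.1 in R 4.3.3 (lmFit, eBayes with trend) over all 6 arrays with group as the only term, so that the FGF15 arrays enter the estimate of the spread (3 residual and 6.83 prior degrees of freedom). All p-values are two-sided and were adjusted by Benjamini-Hochberg over 9685 genes. Every adjusted p is from this fit or its named alternative. The median standard error of a difference was 0.13, and the number of arrays limits the precision. On simulated data with 100 genes changed by 1 log2 and 100 by 0.5, of 9685, the fit recovered 70% and 27% of them with 3 false calls. Far fewer genes changed there than the 1313 called here, and the adjusted p depends on that share. These percentages therefore do not measure the power of the fit on the real arrays. Plots used matplotlib 3.10.9 (Python 3.11.15).

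The genes, lists and rules were chosen with earlier results of these data known, and counts over a list are descriptions. Named genes were the 15 each way with the largest called difference from vehicle, up to 4 called members of each of 32 pathway lists with the smallest p (otherwise the 1 with the smallest p), the 8 each way with the largest called difference from FGF15, and genes fixed by name. Some others, most of them list members, were named after their values were seen: Aldh3a2, Alb, C1qb, Cd68, Cd74, Clec4f, Cpt1a, Csf1r, Dnajc3, Ehhadh, Gclm, Hsd3b7, Hsp90b1, Hspa5, Igfals, Jun, Junb, Krt18, Krt8, Maff, Marco, Mpeg1, Myc, Nr5a2, Pdia6, Ppara, Sgk1, Sult1e1, Syvn1, Vsig4 and Xbp1. Some genes stand in several lists. Alternatives were other offsets, normalizations, filters, choices of probe set and variance priors, array weights, the replicate number as a block, leaving out each array in turn, and calling at 0.10.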

Additional observations from a re-analysis of the deposited data

Results flagged for a closer look

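The difference between FGF19 and FGF15 itself passed the test (limma, adjusted p under 0.05) in the genes given here, in log2 of FGF19 minus FGF15. It was largest upwards for Igfbp1 at 3.27, Egr1 at 2.92, Tnfrsf12a at 2.09, Trp53inp1 at 1.97, Btg2 at 1.91, Cdkn1a at 1.91, Tiparp at 1.86 and Dmbt1 at 1.79. Signalling and early genes followed, with Ier2 at 1.60, Fos at 1.17, Id1 at 1.11, Dusp1 at 0.93, Dusp6 at 0.92, Zfp36 at 0.89, Trib1 at 0.86, Gadd45a at 0.80 and Pde4b at 1.23. Transcription factors and coactivators included Srebf1 at 1.34, Ppargc1a at 1.29, Cebpd at 1.28, Rora at 0.88, Cebpb at 0.71 and Nfil3 at 0.61. Metabolic and transport genes included Cldn14 at 1.38, Cidec at 1.20, Gclc at 1.06, Asns at 1.03, Pltp at 1.03, Gsta4 at 0.59, Fasn at 0.51, Abca1 at 0.49, Slc16a1 at 0.39, Gsta2 at 0.32 and G6pc at 0.32. The remaining positive differences were Cxcl1 at 0.46, Eif1a at 0.45, Saa3 at 0.41 and Iigp1 at 0.40.

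Lower with FGF19 than with FGF15 were Inhbe at -1.73, Cyp2b9 at -1.54, Dbp at -1.44, Erdr1 at -1.32, G0s2 at -1.31, Cyp26a1 at -1.26, Tbx3 at -1.19, Gas1 at -1.14, Cyp7a1 at -0.87 and Usp2 at -0.80. Smaller differences were those of Socs2 at -0.64, Nr1h4 at -0.58, Slc22a7 at -0.47, Hsd3b5 at -0.45, Dnajb9 at -0.44, Vnn1 at -0.41 and Nudt7 at -0.39. The smallest were Sqle at -0.38, Serpina12 at -0.37, Cyp2c70 at -0.35, Hmgcs1 at -0.32, Cxcl12 at -0.32, Cyp2b10 at -0.31 and Orm2 at -0.29. The mean signal of the 18S control probe sets on FGF19 replicate 1, which no comparison uses, was 29.3, above that of the vehicle arrays (12.6 and 11.7).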

How the results depend on the processing

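Against vehicle, the counts were 609 higher and 704 lower. Centring gave 1218 and 330, quantile normalization 655 and 591, and cyclic loess 654 and 621. A variance prior without trend gave 297 and 434, and a threshold of 0.10 gave 1108 lower. With each array left out they ranged from 316 to 613 higher and from 283 to 747 lower. Against FGF15 the counts were 233 and 183, without the trend 110 and 53, and 350 lower at 0.10. With each array left out they ranged from 137 to 192 higher and from 97 to 170 lower. With the replicate number as a block the counts were 625 and 755 against vehicle and 242 and 208 against FGF15. The labels give no basis for pairing, and deviations of same-numbered arrays correlated at -0.02 (vehicle and FGF19), 0.05 (FGF15 and FGF19) and 0.07 (vehicle and FGF15).

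The sign of some differences turned with the probe set read: Klb 0.20, Fmn2 0.039, Foxo1 0.12, Gas1 0.059 and Srxn1 0.11 in their highest probe set, and Cebpd -0.020, Ces1d -0.52, Crem -0.10, Xbp1 -0.44, Eif4ebp2 -0.84 and Atp5c1 -0.081 in their lowest. The mean of probe sets gave -0.11 for Eif4ebp2, and leaving out probe sets that can bind related transcripts gave -0.081 for Atp5c1. Genes that did not pass and lay near 0 also turned. Cpt1a was 0.088 when centred, 0.019 as the mean of probe sets and 0.35 in its highest probe set, and Lpin1 was 0.058 when centred. Fgf21 was 0.11 when centred, 0.11 after quantile normalization and 0.092 after cyclic loess, and ranged from -0.28 to 0.21 with an array left out. In each case the cause was not tested. The offset of 32 compresses differences of dim genes, and 2 arrays a group limit the precision.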

Other observations

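Some genes that handle lipid droplets and phospholipids are given here singly, since they form no list of their own. All but Cidec and G0s2 were named after their values were seen, as were the other genes of this section, and nothing is said of such genes as a group. G0s2, an inhibitor of adipose triglyceride lipase, was lower (-0.36 ± 0.07, limma adjusted p = 0.00634). Cidec, which fuses lipid droplets, had 48.0 and 43.6 with vehicle and 188 and 213 with FGF19 (1.58 ± 0.15, limma adjusted p = 0.000121), while with FGF15 it had 56.3 and 84.7. Fitm1, which helps droplets to form, rose from 190.2 and 199.6 to 476 on both FGF19 arrays (1.16 ± 0.08), and Abhd5, the activator of adipose triglyceride lipase, from 244 and 233 to 499.5 and 497 (0.97 ± 0.12). Fabp2, a fatty acid binding protein, rose from 421 and 424 to 1155 and 1224 (1.43 ± 0.09). Chka, which phosphorylates choline, had 80.5 and 107 with vehicle and 298 and 324 with FGF19 (1.46 ± 0.12). Pctp, the phosphatidylcholine transfer protein, had 385 and 364 with vehicle and 993 and 1021 with FGF19 (1.35 ± 0.07), and Sgms1, which makes sphingomyelin, had 148 and 130.0 with vehicle and 351 and 382 with FGF19 (1.22 ± 0.10). Chka, Pctp and Sgms1 stood at 0.42, 0.79 and 0.37 with FGF15, and the difference between the hormones passed the test in each (adjusted p = 0.000834, 0.00139 and 0.000755).

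Cebpa, a transcription factor of the mature hepatocyte, had 1577 and 1507 with vehicle, 1015 and 1013 with FGF19 and 1846 and 1904 with FGF15. Its difference was -0.59 ± 0.06 with FGF19 and 0.28 with FGF15. Lpin1, a phosphatidate phosphatase, and Hmox1, heme oxygenase, stood at -1.18 and -1.09 with FGF15 but at -0.09 ± 0.07 and -0.24 ± 0.09 with FGF19, where neither passed (adjusted p = 0.473 and 0.117). The differences between the hormones passed for both (adjusted p = 2.5e-05 and 0.000592). Selenbp1, a selenium-binding protein, fell from 6945 and 6790.0 to 2742 and 2920.0 (-1.27 ± 0.07), and its other probe set lay at -0.64. Of 1429 tested probe sets with no gene or several in the platform annotation, 75 were higher and 97 lower with FGF19 than with vehicle. In the same fit 799 were higher and 978 lower of 15540 probe sets with 1 gene, so the shares lie near each other.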
